A study of Mus musculus with 8 samples.

Results

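Calmodulins and calmodulin-dependent kinases (CaM kinases) were examined in primary vascular smooth muscle cells from mouse aorta through 20 array probes, chosen because their gene name in the array files is Calm2, Calm3, Camk1, Camk2a, Camk2b, Camk2d, Camk2g, Camk4 or Camkk2. They are 20 of 41174 probes and stand for 9 of 27962 gene names on the array. The cells came from C57BL/6 aortas and were grown with 20% serum. In the AngII+CsA group, 4 cultures received 1 µM angiotensin II (AngII) with 200 ng/ml cyclosporin A (CsA). In the AngII group, 4 cultures received 1 µM AngII alone. AngII is the peptide hormone that contracts arteries, and CsA is a drug that blocks the phosphatase calcineurin. All cultures of both groups thus had AngII, the labels give no exposure time, and the series holds no sample without AngII. Each culture was read on 1 single-colour array. The 2 arrays that carry the same number lay on the same slide, and the groups were compared within these 4 pairs.

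Calmodulin is the small protein that binds calcium when its level in the cell rises and then switches on other enzymes. One of these is calcineurin, the enzyme that CsA inhibits. Others are the CaM kinases, which form a parallel branch. Camkk2 encodes a kinase that switches on CaM kinase I (Camk1) and CaM kinase IV (Camk4), while the 4 CaM kinase II genes encode subunits that assemble into large rings and activate one another. The delta and gamma subunits are the main forms in vascular smooth muscle, and the alpha and beta subunits are best known from neurons. The comparison asked whether transcripts of this branch differ between cells given AngII with CsA and cells given AngII alone.

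The array probes are 60 bases long, and 4 are shown because they lie at the calcium sensor and at the 2 kinases whose probes agreed best. Each holds 1 forward reading frame without a stop codon. In the Calm2 sequence the capitals mark bases 7 to 42, which a search of that frame found to encode the loop pattern of an EF hand, the fold in which calmodulin holds a calcium ion. Nothing is marked in the other 3. Coordinates are those of the array files, in build mm7.
Calm2 probe 2, chr17:85736478-85737557, minus strand: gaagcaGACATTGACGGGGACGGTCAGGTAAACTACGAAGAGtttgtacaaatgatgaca
Camk1 probe 1, chr6:113497303-113497362, minus strand: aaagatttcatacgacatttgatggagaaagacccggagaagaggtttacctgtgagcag
Camk1 probe 2, chr6:113498143-113498202, minus strand: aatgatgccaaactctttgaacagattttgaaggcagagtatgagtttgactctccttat
Camk2d probe 3, chr3:126672439-126676111, plus strand: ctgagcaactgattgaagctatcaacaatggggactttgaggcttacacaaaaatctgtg
The Calm2 probe spans 1080 bases of the genome and the Camk2d probe 3673, both more than a probe's length. The positions of the other probes were not assigned to exons or untranslated regions, since gene models of mm7 were not used here. Probes of a gene are numbered by position on the chromosome.

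Transcripts for calmodulin (Calm2, Calm3), CaM kinase I and the delta and gamma subunits of CaM kinase II were above background on all 8 arrays. None of the 14 probes that could be tested passed the test between the groups. Camk2g, which encodes the gamma subunit, was the only one of the 14 that was higher with CsA in 4 of 4 pairs, by 0.38 in log2 or 1.30-fold. The other 13 lay between -0.50 and 0.19. Values are log2 of the processed spot signal relative to the 75th percentile of the same array, and levels are compared only for the same probe across arrays. Testing required a signal above background on 4 or more of the 8 arrays, which 19532 probes in all and 14 probes of 7 of the genes met.

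By limma with the replicate number as a block and Benjamini-Hochberg adjustment, 0 of the 14 probes had an adjusted p under 0.05, beside 0.0102% of all tested probes. The smallest adjusted p among the 14 was 0.919. At an unadjusted p under 0.05 there was 1 of the 14, Camk2g, beside 4.78% of all probes (1.94% higher and 2.84% lower with CsA). That count was 0 of the 14 without replicate 2, 3 or 4. With normexp it was 3 of the 14, but there 4917 of all 19532 probes had such a p. One was higher in 4 of 4 pairs (6.54% of all probes were) and 0 were lower in 4 of 4 (7.65%). With no replicate block the counts were 0 at the adjusted threshold and 0 at an unadjusted p under 0.05, where 0% and 0.292% of all probes passed. Of the 14 differences, 5 were positive and 9 negative, where 50.8% of all tested probes were positive. Their median was -0.10, beside 0.0033 over all tested probes. The sign of that median was not stable. It was 0.029 without replicate 1 and 0.021 with normexp background correction, with 9 and 8 of the 14 positive. The median size of a difference, whatever its sign, was 0.15 for these probes and 0.11 for all. The median width of their 95% intervals was 0.81 in log2. In these bulk cultures, fewer cells that make a transcript and less of it per cell cannot be told apart.

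**Figure D1:**
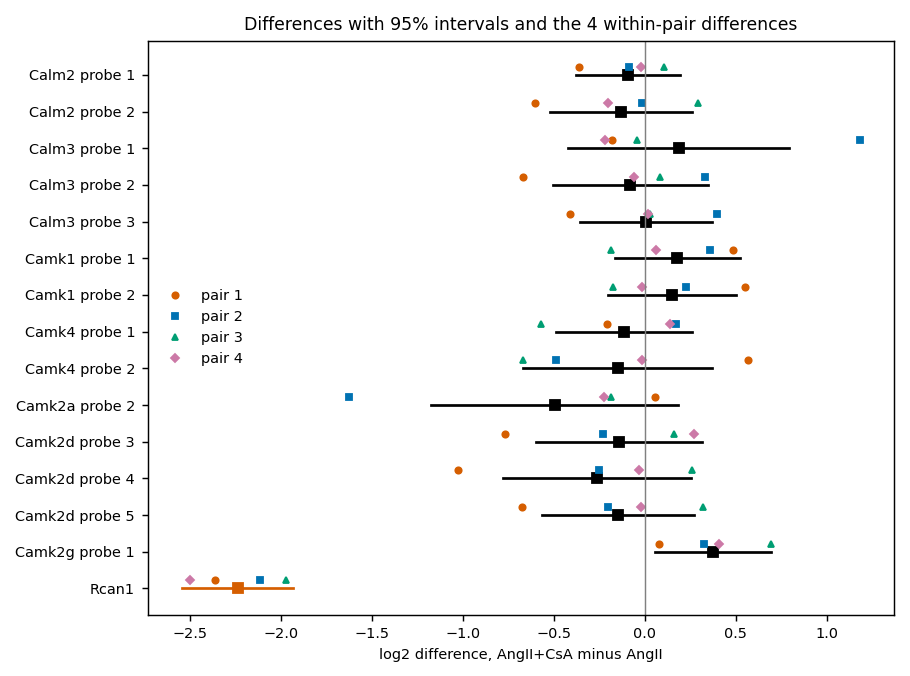
The plot of differences gives, for each tested probe, the log2 difference AngII+CsA minus AngII (square), its 95% interval from limma with the replicate block (line) and the 4 within-pair differences (small symbols). The Camk2g interval lies above 0 before adjustment for the number of probes, those of the other 13 include 0, and Rcan1 at -2.24 is drawn for scale.

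The calmodulin genes encode the same protein from separate loci. Calm2 was read by 2 probes on chromosome 17, probe 1 at 85736018 to 85736077 and probe 2, the EF-hand probe printed above. Calm2 probe 2 measured 8.52, 8.08, 8.81 and 8.11 in AngII+CsA replicates 1 to 4, against 9.12, 8.09, 8.52 and 8.31 in AngII replicates 1 to 4. The groups overlapped, and the difference was -0.13 (95% interval -0.52 to 0.26, adjusted p = 0.946). Calm2 probe 1 measured 4.57, 5.35, 4.60 and 5.66 with AngII+CsA, against 4.93, 5.44, 4.50 and 5.68 with AngII. Its groups overlapped too, at a difference of -0.09 (95% interval -0.38 to 0.19, adjusted p = 0.950).

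The 2 Calm2 probes ranked the cultures differently. By pair mean, probe 1 was highest in replicate 4 and lowest in replicate 3, while probe 2 was highest in replicate 1 and lowest in replicate 2. Over the 8 arrays their Pearson r was -0.66. Among 3814 pairs of probes for the same gene, the median r was 0.733 and 3.51% lay below the Calm2 pair. These r values describe 8 arrays that share 4 slides. Which of the 2 probes follows the Calm2 transcript was not tested.

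Calm3, on chromosome 7, was read by 3 probes, at 14678991 to 14679010 (probe 1), 14679022 to 14679081 (probe 2) and 14680429 to 14680485 (probe 3). These coordinates cover 20 bases for probe 1 and 57 for probe 3, fewer than the 60 bases of a probe. Where the rest of probe 1 and of probe 3 lies was not examined. Calm3 probe 2 measured 5.11, 5.63, 6.24 and 6.27 in AngII+CsA replicates 1 to 4, against 5.77, 5.30, 6.15 and 6.33 in AngII replicates 1 to 4, a difference of -0.08 (95% interval -0.50 to 0.35). Calm3 probe 3 measured 1.24, 2.27, 2.49 and 2.93 with AngII+CsA, against 1.65, 1.87, 2.46 and 2.91 with AngII, a difference of 0.0069 (95% interval -0.36 to 0.37). In both, replicate 1 had the lowest pair mean and replicate 4 the highest, and the groups overlapped.

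Calm3 probe 1 measured 4.34, 4.58, 5.33 and 4.61 with AngII+CsA, against 4.52, 3.39, 5.38 and 4.83 with AngII. It differed by 0.19 (95% interval -0.42 to 0.79), and pair 2 alone was positive, at 1.19. The 3 probes had adjusted p of 0.952, 0.968 and 0.996 in order of position. Their r with one another over the 8 arrays was 0.484 to 0.890.

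Camkk2, an upstream kinase that also switches on the energy sensor AMPK, was not well above background. Its 2 probes on chromosome 5, at 121965738 to 121965797 and 121967568 to 121967627, were above background on 0 of 4 AngII+CsA arrays and 0 of 4 AngII arrays. Probe 2 read -4.65, -5.19, -5.28 and -5.00 with AngII+CsA, against -3.75, -4.21, -4.54 and -4.60 with AngII, so the groups did not overlap there, but all 8 signals were at background. The lowest signals called above background ranged from -3.94 to -2.95 over the arrays, and the Camkk2 signals lay between -5.46 and -3.46. No fold is given for signals at background. Camkk1, a relative outside the genes chosen here, was above background on 4 of 4 arrays in each group. It averaged 3.02 with AngII+CsA and 2.98 with AngII (adjusted p = 0.979 by limma with the block).

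Camk1, the calmodulin-dependent kinase that Camkk2 acts on, was read by 2 probes on chromosome 6, both printed above, that followed each other closely. Camk1 probe 1 measured 1.98, 2.14, 2.73 and 2.54 in AngII+CsA replicates 1 to 4, against 1.497, 1.78, 2.92 and 2.48 in AngII replicates 1 to 4. Camk1 probe 2 measured 2.07, 2.10, 2.66 and 2.46 with AngII+CsA, against 1.52, 1.87, 2.83 and 2.48 with AngII. Both probes were highest in replicate 3 and lowest in replicate 1, with an r of 0.995 over the 8 arrays.

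The Camk1 differences were 0.18 (95% interval -0.16 to 0.52, adjusted p = 0.919) and 0.15 (95% interval -0.20 to 0.50, adjusted p = 0.932) for probes 1 and 2. They were largest in pair 1, at 0.48 and 0.55, and negative in pair 3, at -0.18 and -0.17. Without replicate 1 they were 0.08 and 0.01. Between the replicate numbers lay 88.2% and 85.6% of the variance of these probes over the 8 arrays.

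Camk4 encodes CaM kinase IV, a nuclear kinase best known from neurons and T cells. Its 2 probes lie on chromosome 18 at 33560469 to 33560528 and 33561193 to 33561252. Camk4 probe 1 was above background on 2 of 4 AngII+CsA arrays and 2 of 4 AngII arrays, so its difference of -0.12 rests in part on signals at background. Camk4 probe 2 was above background on 4 of 4 AngII+CsA arrays and 3 of 4 AngII arrays. It measured -2.53, -1.69, -2.54 and -1.49 with AngII+CsA, against -3.10, -1.20, -1.87 and -1.47 with AngII, with overlapping groups and a difference of -0.15 (95% interval -0.67 to 0.37, adjusted p = 0.953). The 2 probes had an r of 0.492. Without replicate 3 their differences were 0.03 and 0.02, so the sign of both rested on that pair.

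Of the 4 CaM kinase II genes, those for the delta and gamma subunits were clearly measured. Camk2d, on chromosome 3, had 5 probes. Probe 3, printed above, probe 4 at 126680718 to 126680777 and probe 5 at 126682605 to 126682664 were above background on all 8 arrays. Probe 1 (126647285 to 126647344) and probe 2 (126656044 to 126656103), designed from RIKEN cDNA clones, were above background on none.

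Camk2d probe 5 measured 7.20, 6.26, 6.71 and 5.85 in AngII+CsA replicates 1 to 4, against 7.88, 6.46, 6.39 and 5.87 in AngII replicates 1 to 4. Camk2d probe 4 measured 2.29, 1.14, 1.76 and 0.69 with AngII+CsA, against 3.32, 1.39, 1.497 and 0.73 with AngII. Camk2d probe 3 measured 1.59, 0.71, 1.26 and 0.58 with AngII+CsA, against 2.35, 0.94, 1.10 and 0.31 with AngII. In each, replicate 1 had the highest pair mean and replicate 4 the lowest, and the groups overlapped throughout.

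The Camk2d differences between the groups were -0.14 (95% interval -0.60 to 0.31), -0.26 (95% interval -0.78 to 0.25) and -0.14 (95% interval -0.56 to 0.27) for probes 3, 4 and 5, at adjusted p of 0.952, 0.919 and 0.941. They were negative in pairs 1 and 2 and positive in pair 3. Pair 1 differed by -0.77, -1.03 and -0.68. Without replicate 1 the differences were 0.066, -0.0078 and 0.032, so the sign of probes 3 and 5 rested on that pair. The r between these probes was 0.983 to 0.996, a closer agreement than in 92.0% of same-gene probe pairs or more.

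The spread of Camk2d between cultures was larger than its difference between groups. Over the 8 arrays Camk2d probe 4 ranged over 2.63 in log2, with an SD of 0.87, the largest of the 14 tested probes. The share of variance between replicate numbers was 87.2%, 88.8% and 90.8% for probes 3, 4 and 5, beside a median of 87.3% over all tested probes. The 3 genes whose probe followed Camk2d probe 4 most closely over the 8 arrays were Lamp1 (r = 0.997), a lysosomal membrane protein, Mob1a (r = 0.996), a Hippo pathway adaptor, and Eif4a2 (r = 0.996), an RNA helicase of translation. They were picked by their r among 19500 probes, and the r is a description of 8 arrays.

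**Figure D2:**
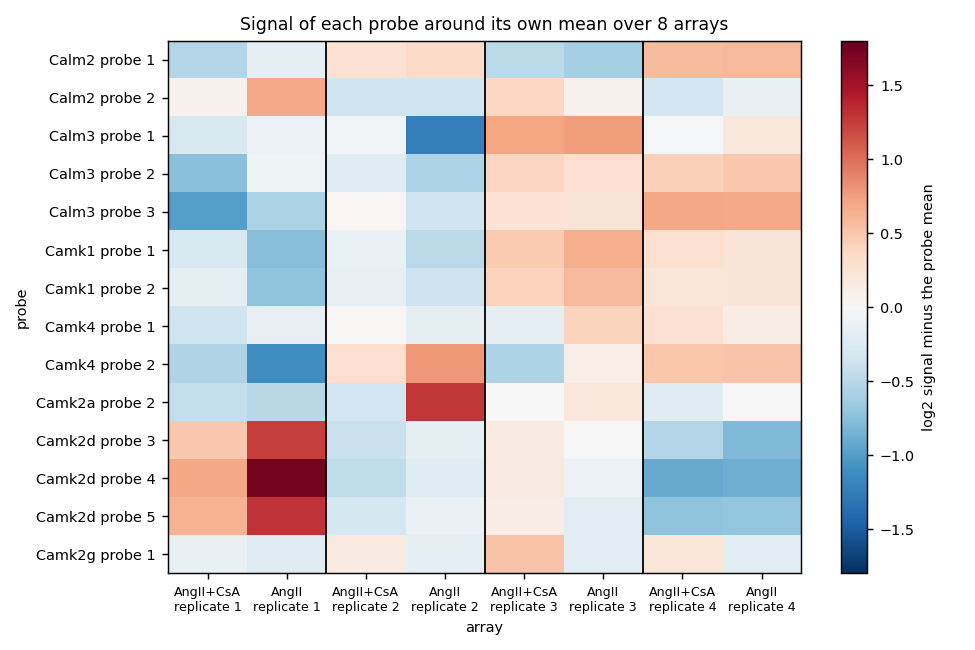
The colour map gives the log2 signal of each tested probe minus its own mean, with the 8 arrays ordered by replicate number and lines between slides. The Camk2d probes are highest in both replicate 1 arrays and lowest in replicate 4. Within each group the Camk1 probes are lowest in replicate 1. Camk2g shows the 4 AngII arrays at nearly the same level.

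Camk2g was read by 1 probe, on chromosome 14 at 18391540 to 18391599. It measured 3.36, 3.66, 4.01 and 3.71 in AngII+CsA replicates 1 to 4, against 3.29, 3.34, 3.31 and 3.30 in AngII replicates 1 to 4. All AngII+CsA values lay above all AngII values, but the lowest AngII+CsA array at 3.36 was only just above the highest AngII array at 3.34. Groups that do not overlap were seen in 0.358% of all tested probes.

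Camk2g averaged 3.69 ± 0.27 with AngII+CsA and 3.31 ± 0.02 with AngII (SD, n = 4 each). The within-pair differences were 0.08, 0.32, 0.69 and 0.41, with a mean of 0.38 and an SD of 0.26. The 95% interval of limma with the block was 0.06 to 0.69. That interval draws on the variance of all tested probes and not on these 4 pairs alone. The unadjusted p of limma with the block was 0.0271 and ranked 471 of 19532 probes, and the adjusted p was 0.919. With no replicate block the unadjusted p was 0.125. Leaving out 1 replicate at a time gave differences of 0.27 to 0.48, and unadjusted p of 0.0104, 0.0692, 0.0947 and 0.0935 without replicates 1, 2, 3 and 4.

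The AngII arrays were unusually alike for Camk2g. No other tested probe had a smaller SD over the 4 AngII arrays, where the median probe had 0.473, while 21.0% of probes had a smaller SD over the AngII+CsA arrays. Between replicate numbers lay 23.2% of the variance of Camk2g, a smaller share than in all but 1.71% of the tested probes. Camk2d, by contrast, was close to the median probe in this share. Whether the 2 genes differ in it was not tested.

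Camk2a and Camk2b, the subunits known from neurons, were at or near background. The Camk2b probe, on chromosome 11 at 5921835 to 5921894, was above background on 0 of 4 AngII+CsA arrays and 0 of 4 AngII arrays. So was Camk2a probe 1, on chromosome 18 at 61353382 to 61359438. Camk2a probe 2, at 61377304 to 61377363, was above background on all 8 arrays. It measured -2.67, -2.57, -2.21 and -2.45 with AngII+CsA, against -2.72, -0.94, -2.03 and -2.22 with AngII. The difference of -0.50 (95% interval -1.17 to 0.18, adjusted p = 0.919) came largely from AngII replicate 2, and without that pair it was -0.12.

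**Figure D3:**
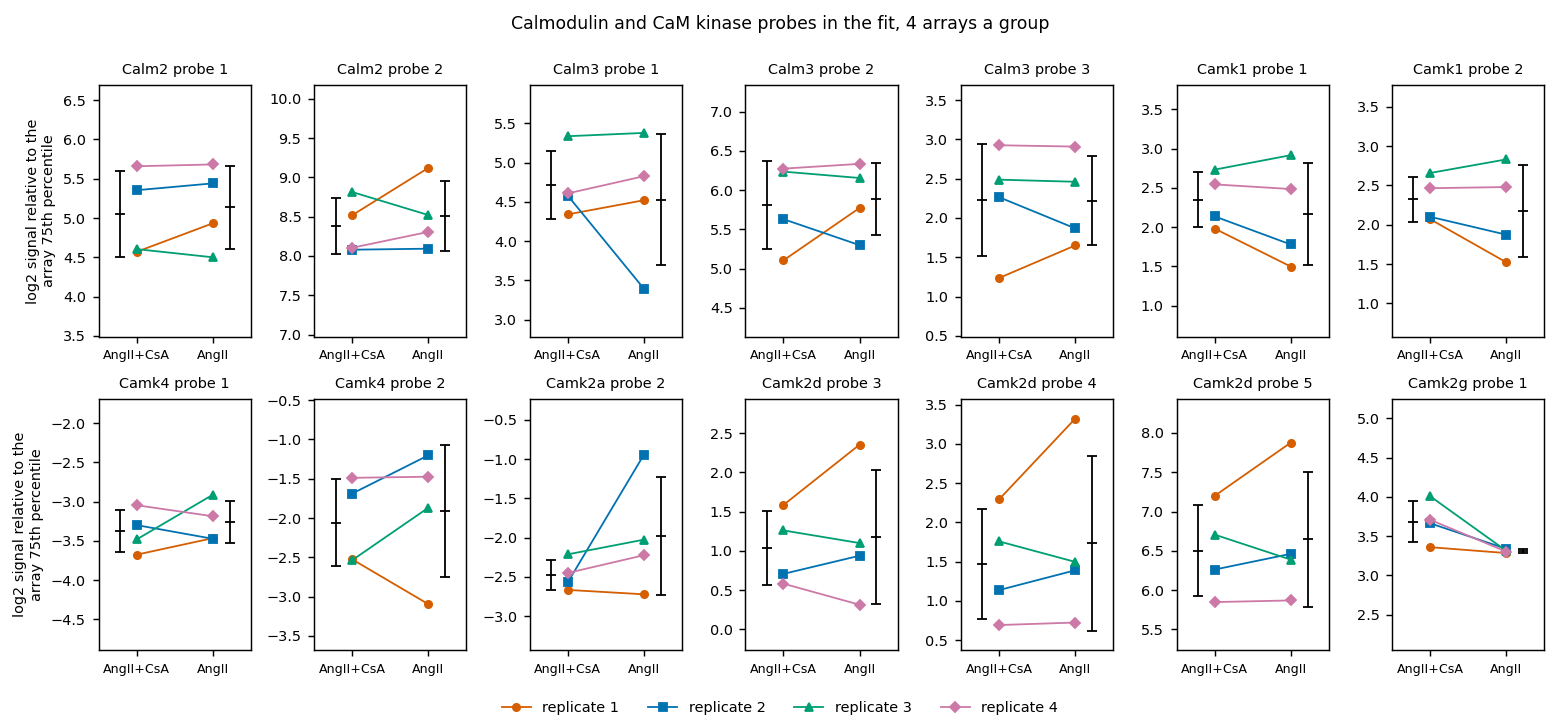
Each panel gives 1 tested probe, with its scaled log2 signal in the 4 AngII+CsA arrays (left) and the 4 AngII arrays (right), lines joining arrays of the same replicate number, and the mean ± SD beside each group. Each panel spans the same range of log2 units, and Camk2g is the panel in which all 4 lines run lower toward AngII.

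Replicate 1 stood apart for most of these probes, as the highest pair mean in 4 and the lowest in 8 of the 14. It was the highest or the lowest in 63.2% of all tested probes. Within pair 1 the median difference of the 14 probes was -0.29, while in pairs 2, 3 and 4 it was 0.08, 0.05 and -0.02. Over all tested probes these medians were -0.06, 0.0070, 0.01 and 0.01. Some lists of cell type markers also set replicate 1 apart, and others did not. Its pair mean was the lowest in 9 of 10 tested smooth muscle marker probes, 3 of 3 neuron and 3 of 3 macrophage marker probes. It was the highest in 3 of 4 fibroblast marker probes. In T cell markers it was the lowest in 1 of 2 probes, and likewise in 1 of 2 skeletal and cardiac muscle marker probes. For the 2 endothelial marker probes it was neither the highest nor the lowest. The smooth muscle exception was Myh11, the smooth muscle myosin heavy chain, which read 1.03, 0.79, 0.59 and 0.29 in AngII+CsA replicates 1 to 4, against 0.28, 0.67, 0.55 and -0.22 in AngII replicates 1 to 4. In the same replicate Camk2d was highest and Camk1 lowest. These lists were read for this after their values were seen. The part of cell makeup in these levels was not tested.

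Genes that neighbour this branch were read from lists by function. Of 11 other calmodulin and CaM kinase family genes, 8 had a tested probe (10 probes), 0 probes passed in either direction, and the median difference was -0.05. The smallest p belonged to Pnck, a CaM kinase I relative, at -0.26, and to Camk1d, another, at -0.39, with Camk1d above background on 2 of 4 arrays in each group. The CaM kinase II inhibitor gene Camk2n1 was not above background on any array.

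Of 10 other calmodulin-binding kinases, 8 had a tested probe (9 probes), 0 passed in either direction, and the median was -0.0011. Dapk2 and Dapk1, death-associated kinases, had the smallest p, at 0.25 and -0.26. Of 13 other calmodulin-controlled enzymes, 10 had a tested probe (18 probes), 0 passed in either direction, and the median was -0.0073.

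In that last list Adcy8, a calcium-stimulated adenylyl cyclase, measured 1.14 ± 0.33 with AngII+CsA and 0.78 ± 0.37 with AngII (SD, n = 4 each), a difference of 0.36 that was positive in 4 of 4 pairs (adjusted p = 0.919). Pde1a, a calcium-activated phosphodiesterase that breaks down cyclic nucleotides, had differences of -0.40, -0.31, -0.33 and -0.21 at its 4 tested probes, where the first had the second smallest p of the list (adjusted p = 0.919).

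Of 10 calmodulin-binding regulators, 7 had a tested probe (13 probes), with a median difference of 0.16 and 0 past the test. Of these differences 10 were positive and 3 negative, where 50.8% of all tested probes were positive. Marcks, which sequesters calmodulin and a membrane lipid, had -0.34, and Iqgap1, a scaffold protein, had 0.19. Of 16 known targets of CaM kinases, 15 had a tested probe (27 probes), 0 passed in either direction, and the median was 0.0030. Hdac4, the histone deacetylase that CaM kinase II sends out of the nucleus, measured 2.31 ± 0.14 with AngII+CsA and 1.90 ± 0.15 with AngII (SD, n = 4 each), a difference of 0.41 that was positive in 4 of 4 pairs (adjusted p = 0.919). Its relative Hdac9 had -0.45, negative in 4 of 4 pairs (adjusted p = 0.919).

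**Figure D4:**
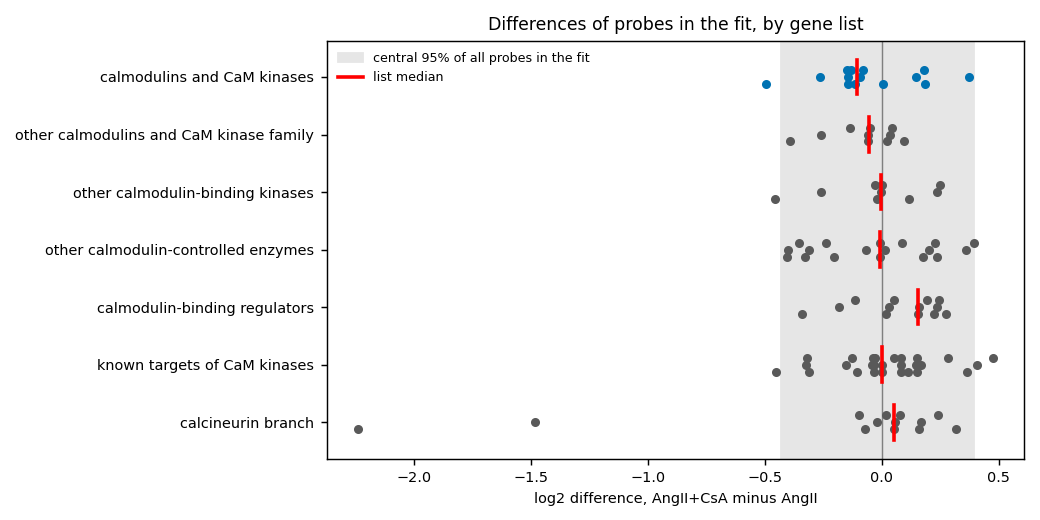
The plot of gene lists gives the log2 difference AngII+CsA minus AngII of every tested probe (points) and each list's median (red bar). The grey band, from -0.43 to 0.39, holds the central 95% of all tested probes, and 1 calmodulin or CaM kinase probe, that of Camk2a, lies outside it.

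On the calcineurin branch the same test called Rcan1, the calcineurin regulator that NFAT induces, at -2.24 (adjusted p = 0.0243, lower in 4 of 4 pairs), 1 of 2 probes past the threshold in the whole table. The second Rcan1 probe differed by -1.49, also lower in 4 of 4 pairs, and did not pass (adjusted p = 0.276). No probe in the table passed with no replicate block, with no filter on dim probes or without any 1 of the replicates, where the smallest adjusted p was 0.9999, 0.224 and 0.0764 to 0.495. Genes of calcineurin itself, which shares calmodulin with these kinases, did not pass, with 0.24 for Ppp3ca and 0.32 for Ppp3r1 at their probes with the smallest p. The other tested calcineurin probes had 0.17 and 0.08 for Ppp3r1, -0.095 for Ppp3cc, and 0.16, -0.07, -0.02 and 0.02 for Ppp3cb.

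The arrays had 42.8% to 51.7% of spots above background. Smooth muscle markers had a tested probe for 7 of 7 genes. Among them the contractile protein gene Cnn1 read 3.33, 5.96, 6.93 and 6.43 in AngII+CsA replicates 1 to 4, against 6.01, 7.46, 8.19 and 7.75 in AngII replicates 1 to 4. Its difference of -1.69 (95% interval -2.29 to -1.08) was negative in 4 of 4 pairs, with an unadjusted p of 0.000406 and an adjusted p of 0.567. The other 9 smooth muscle marker probes had differences between -0.35 and 0.36. The summed linear signal of the smooth muscle markers was 387.7 to 1967 with AngII+CsA and 450.6 to 2085 with AngII. All 3 fibroblast markers were also measured, with a summed signal of 367.9 to 1261 with AngII+CsA and 317.2 to 1292 with AngII. The endothelial markers Pecam1 and Cdh5 were above background on none of the arrays, and 2 of the 5 endothelial genes had a tested probe. Of the 4 neuron markers 2 had a tested probe, with a summed signal of 238 to 760 with AngII+CsA and 136.4 to 716.1 with AngII. Nearly all of it came from 1 of the 2 tested Syn1 probes, which averaged 8.62 ± 0.70 with AngII+CsA and 8.59 ± 1.12 with AngII (SD, n = 4 each). The other tested Syn1 probe averaged -2.49 with AngII+CsA and -2.27 with AngII, above background on 3 of 4 arrays in each group. The untested Syn1 probes were above background on no AngII+CsA array and on at most 1 AngII array. Which of these probes follows the Syn1 transcript was not tested. A tested probe was also found for 2 of the 3 macrophage markers, 2 of the 3 T cell markers and 2 of the 4 skeletal and cardiac muscle markers. None of these marker probes passed the test, and their part in the values above was not tested.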

How the data were processed

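Per the file headers, spots of array design 014868 were read by Agilent Feature Extraction, version 9.5.3.1. Linear spot intensity, as a background-subtracted processed signal, is what the deposited scanner files hold. A second deposited table gives log2 values, which rank the probes as the arrays do, with the same median of 3.01 in each column. When sorted, its columns differ from one another by at most 0.00185, as they would after quantile normalization. Its method and constant are not named in the sources used here.

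Analysed values were log2 of the processed signal minus each array's 75th percentile. Control spots and those marked as outliers were dropped, and 0 spots were saturated. Probes above background on at least 4 of 8 arrays (19532 of 41174) were fitted with limma 3.58.1 in R 4.3.3, two-sided, with the replicate number as a block, all probes kept separate, and Benjamini-Hochberg adjustment at 0.05. The number of arrays limits the precision. The pipeline was tested on simulated data.

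Arrays with the same number shared a slide and a scan (4 slides). The comparison was set in advance as paired by replicate number. After subtraction of the group means, such arrays had r of 0.702 to 0.861 with each other. Arrays of different groups with different numbers had r of -0.759 to 0.251. Deviations within a group cancel out for each probe, so a positive r within pairs by itself lowers the r between different numbers. These r values describe the pairing and did not decide it. The series' design text calls the cultures of a condition independent, and the number of each array is from its label. Culture and slide cannot be told apart as the source of the pairing.

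Of all probes, 22944 took a symbol by matching the accession to RefSeq (GRCm38.p6) and 6664 already carried a current symbol, while 11566 kept the file's name. The accession of 17 of the 20 member probes was in that table, each under its own gene. The members and lists were chosen with earlier results of these data known. Named genes were all member probes, Rcan1, and the 3 genes most like the most variable member probe. Per list, the genes past the threshold were named, or else the 2 with the smallest p. Camkk1, Camk2n1, Ppp3ca, Ppp3cb, Ppp3cc, Ppp3r1 and the cell type markers Cnn1, Myh11, Syn1, Pecam1 and Cdh5 fall outside this rule and were named after their values were seen. Alternatives covered the block, background, scaling, dim and outlier spots, probe choice, variance model, the authors' table and each replicate.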

Additional observations from a re-analysis of the deposited data

Results flagged for a closer look

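In 14 tested probes, 42 sets of 4 values were examined for a value far from the other 3, and chance flags about 1 in 20 such sets. Calm3 probe 1 differed by 1.19 in pair 2, while its other pairs lay between -0.22 and -0.04. Camk2a probe 2 differed by -1.63 in pair 2, while its other pairs lay between -0.23 and 0.06. In both, AngII replicate 2 was the array that stood apart, at 3.39 for Calm3 probe 1 and -0.94 for Camk2a probe 2.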

How the results depend on the processing

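The count of calmodulin and CaM kinase probes past the threshold was 0 under all 15 alternatives, with a smallest adjusted p of 0.178 (Camk2g, normexp background correction). Over the whole table the count was 2, and it was 0 with no replicate block, 8 with the replicate block as a random effect, 0 with no filter on dim probes, 4 with only probes above background on all 8 arrays, 6 with the trend and robust variance model, 3 with normexp, and 0 without any 1 of the replicates. The median difference of these probes, -0.104, lay between -0.131 and 0.0291, above 0 with normexp (0.0212) and without replicate 1 (0.0291). The differences of Camk1, Camk2g, Camk2a probe 2 and Camk2d probe 4 kept their sign throughout, that of Camk2g between 0.27 and 0.48, but without replicate 1 those of Camk1 were 0.0778 and 0.0134 for probes 1 and 2 and that of Camk2d probe 4 was -0.00777, and without replicate 2 that of Camk2a was -0.119. Of 201 values for single probes under the alternatives, 14 had the opposite sign, between -0.147 and 0.117 and none past the threshold, and the cause was not tested. With normexp these were Calm2 at 0.0349 and 0.00741 for probes 1 and 2 and Calm3 probe 2 at 0.0383. Calm3 probe 3 turned to -0.0332 with the authors' table and -0.0364 with quantile normalization, and Calm3 probe 2 to 0.00392 with scaling by the array median. Leaving out 1 replicate at a time gave -0.272 to 0.0258 for Calm2 probe 2 (positive without replicate 1), -0.147 to 0.321 for Calm3 probe 1 (negative without replicate 2), -0.216 to 0.117 for Calm3 probe 2 (0.117 without replicate 1) and -0.123 to 0.147 for Calm3 probe 3 (-0.123 without replicate 2). It gave -0.213 to 0.0349 and -0.39 to 0.0231 for Camk4 probes 1 and 2, positive without replicate 3, and -0.279 to 0.0661 and -0.3 to 0.0324 for Camk2d probes 3 and 5, positive without replicate 1. The replicate block changed no call for these genes. Dim signal limits Camkk2, Camk2b, Camk2a and Camk4.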
